A study of Mus musculus with 10 samples.

Results

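The nuclear genes of the mitochondrial respiratory chain were followed through differentiation of mouse embryonic stem (ES) cells with and without Smyd5. Members were all gene symbols of the families Nduf (a, b, c, s and v), Sdh (a to d), Uqcr, Cox (4 to 8) and Atp5, which gave 86 of 22878 genes. By complex, 38 fell in complex I, 4 in complex II, 8 in complex III, 19 in complex IV and 17 in complex V. The name pattern also took in 4 genes that are not standard subunits, Cox4nb, Atp5s, Atp5sl and Ndufa4l2. PolyA RNA was sequenced from R1 mouse ES cells that carried a lentiviral shRNA against Smyd5 (shSmyd5), a SET and MYND domain protein, or against luciferase (shLuc), the control. For each construct there was 1 library from ES cells and 1 each from embryoid bodies (EBs, floating aggregates grown without LIF) at 24 h, day 6, day 10 and day 14. ES cells had LIF and, per the labels, were passaged for RNA-Seq on gelatin with the GSK3 inhibitor CHIR9901 so that feeder cells were lost. Because each condition had 1 library, no fold at a single stage has a replicate check.

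The respiratory chain carries electrons from NADH (complex I) and succinate (complex II) through ubiquinone to complex III, then through cytochrome c to complex IV, where oxygen is reduced. Complexes I, III and IV pump protons across the inner mitochondrial membrane, and complex V, the ATP synthase, lets them back to make ATP. Most subunits are encoded in the nucleus, are small, and are expressed in nearly every cell, and pluripotent cells are known to rely heavily on glycolysis beside respiration. In bulk RNA, fewer cells of a type and less RNA per cell cannot be told apart.

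Levels are given as RPKM, reads scaled to transcript length and to library size, which can be compared between genes. The shallowest library, shLuc ES cells, had 3895537 reads in genes and the deepest, shLuc EBs of day 6, had 43377815. Smyd5 had 4.51, 0.891, 0.492, 9.14 and 6.88 RPKM in shSmyd5 at the 5 stages in order, against 29.7, 10.7, 15.4, 24.95 and 13.1 RPKM in shLuc. It was lower in the knockdown at every stage, and least so at day 14, where the log2 fold was -0.92. ES cell markers (Pou5f1, Nanog and 5 others) were all at an RPKM of 3 or more in both ES libraries, and they summed to 57.7 RPKM in shSmyd5 and 121 RPKM in shLuc EBs of day 14, against 2662 RPKM in shSmyd5 and 3390 RPKM in shLuc ES cells. Primitive and visceral endoderm markers summed to at most 3.35 RPKM in ES cells, with Afp and Ttr at 0. At day 6 they reached 956 RPKM in shSmyd5, against 148 RPKM in shLuc, and at day 14 they stood at 3943 RPKM in shSmyd5 and 4106 RPKM in shLuc.

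Respiratory chain genes were abundant at all stages, and 83 of 86 reached an RPKM of 3 in some library. The median member had 51.2 RPKM in shSmyd5 and 54.7 RPKM in shLuc EBs of day 14, against 82.7 RPKM in shSmyd5 and 66.3 RPKM in shLuc ES cells. The highest mean belonged to Atp5b, the catalytic beta subunit of ATP synthase, which lay between 294 RPKM (shLuc, day 14) and 893 RPKM (shLuc ES cells). The highest in complex I was Ndufa4 (mean 298 RPKM), a protein first counted with complex I and now placed in complex IV. Complex IV was led by Cox6a1 (282 RPKM), the widely expressed isoform of a small subunit, complex III by Uqcrh (204 RPKM), the hinge protein, and complex II by Sdhd (79.9 RPKM), a membrane anchor of succinate dehydrogenase. Among the 77 members that kept an RPKM of at least 3 in all 10 libraries, the highest library exceeded the lowest by a median of 3.41-fold. Sdhd varied least, by 1.38-fold. Uqcrb, a small subunit of complex III, varied most, by 15.7-fold, with 375 RPKM in shLuc EBs of 24 h and 23.9 RPKM in shLuc ES cells. The lower value rests on 67 reads in the shallowest library. These ranges were not corrected for GC content or length.

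**Figure D1:**
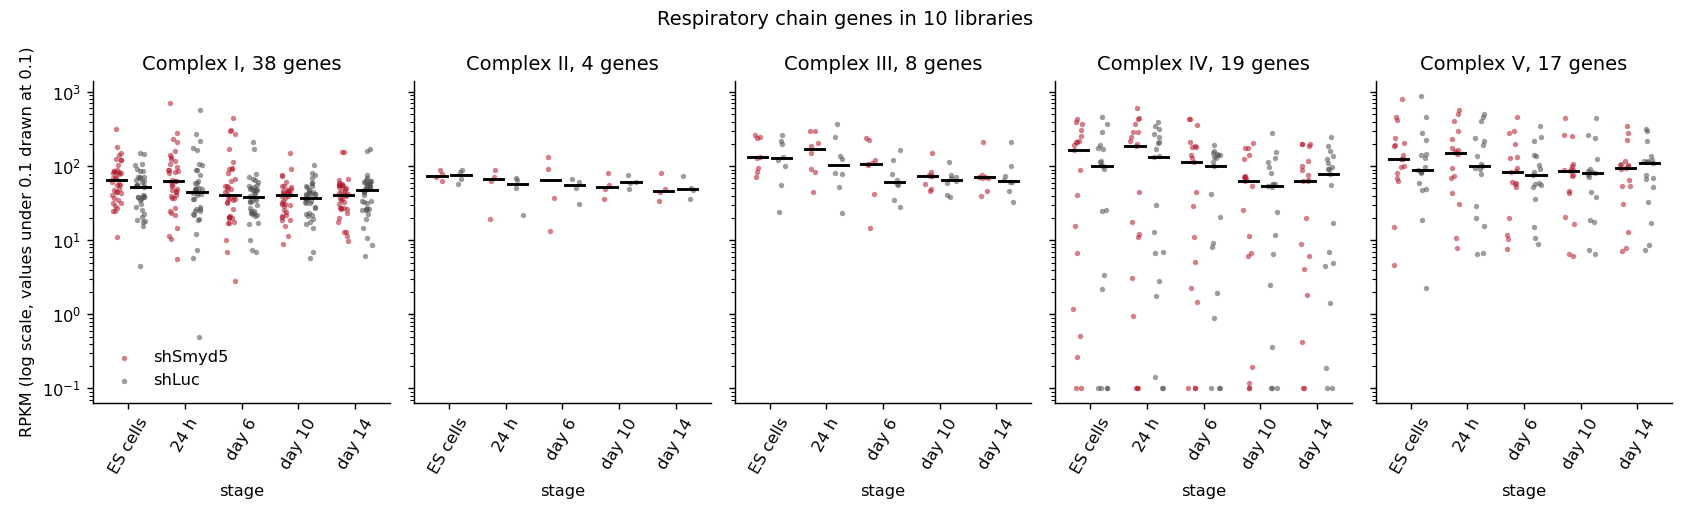
RPKM (log scale) of each member by complex and stage, shSmyd5 in red and shLuc in grey, 1 point per gene and 1 library per column, with the median as a black bar. In complex IV the points near 0.1 are Cox6a2, Cox8b, Cox8c and other isoforms hardly expressed in these cells, while the median of complex IV was 167 RPKM in shSmyd5 and 100 RPKM in shLuc ES cells.

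In ES cells, the knockdown library held more RNA of many respiratory chain genes. Of the 81 members that reached an RPKM of 3 in one of the ES libraries, 33 were at least 1.5-fold higher in shSmyd5 and 4 were at least 1.5-fold lower, where over all genes 17.4% were higher and 25.4% lower. The median log2 fold was 0.42 for members and -0.07 for all genes. By complex, 17 of 38 members were higher in complex I, none of 4 in complex II, 2 of 8 in complex III, 7 of 14 in complex IV and 7 of 17 in complex V.

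The highest ES cell fold belonged to Uqcrb, with 84.6 RPKM in shSmyd5 and 23.9 RPKM in shLuc (log2 1.82, exact binomial 95% interval 1.47 to 2.20, which covers counting error only). Ndufa1, an accessory subunit needed for complex I assembly, had 89.9 RPKM in shSmyd5 and 34.9 RPKM in shLuc. Ndufa6, another accessory subunit, had 142 RPKM in shSmyd5 and 55.98 RPKM in shLuc. The lowest folds were in complexes I, V and III. Ndufv1, the flavin-binding subunit that takes electrons from NADH, had 32.1 RPKM in shSmyd5 and 87.1 RPKM in shLuc (log2 -1.44, interval -1.56 to -1.32). Atp5d, the delta subunit of the ATP synthase stalk, had 126 RPKM in shSmyd5 and 223 RPKM in shLuc, and Uqcrc1, a core protein of complex III, had 134 RPKM in shSmyd5 and 221 RPKM in shLuc.

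These folds moved with the base composition and length of the transcripts. Across 8905 genes, the rank correlation of the ES cell fold with GC content was -0.68, and it was -0.41 across the 81 members; genes of 1 library pair share its composition and are not replicates. Members are short, with a median transcript of 679 bases against 2208 bases over all genes, and their median GC content was 52.4%. Uqcrb, at 42.2% GC, is among the poorest in GC, and Ndufv1, Atp5d and Uqcrc1, at 56.7, 61.1 and 57.5% GC, are among the richest. When the trend of all genes on GC content and length was taken out, 9 members were at least 1.5-fold higher in shSmyd5 and 6 lower, where 9.17% of all genes were higher and 10.3% lower, and the median of the members was 0.09. Uqcrb then stood at a log2 fold of 0.40 and Ndufv1 at -0.89. The share of the ES cell difference that belongs to the cells and the share that belongs to the libraries cannot be told apart with 1 library per group.

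At 24 h the same direction was seen as in ES cells, but with the opposite slope on GC content. In shSmyd5, 29 of 82 members were at least 1.5-fold higher and 1 was lower, where 27.8% of all genes were higher and 12.2% lower, and the median log2 fold was 0.36 for members and 0.17 for all genes. The rank correlation with GC content was 0.58 over all genes and 0.63 over the members. With the trend taken out, 5 members were higher and 6 lower, where 13.5% of all genes were higher and 13.3% lower, and the median was 0.01. Both stages therefore had a raised median that was near 0 after the correction, although low-GC members led in ES cells (median 0.66, against 0.26 for the high-GC members) and high-GC members led at 24 h (median 0.66, against 0.21 for the low-GC members).

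A pair of genes stood above the rest at 24 h before and after this correction. Ndufa4l2, a paralog of Ndufa4 known as a target of the hypoxia response, had 5.61 RPKM in shSmyd5 and 0.487 RPKM in shLuc (log2 3.28, interval 2.58 to 4.67, and 2.34 with the trend removed). The reads behind these values were 226 in shSmyd5 and 9 in shLuc. Cox7a1, the heart and skeletal muscle isoform of a complex IV subunit, had 17.8 RPKM in shSmyd5 and 2.85 RPKM in shLuc (log2 2.60, interval 1.99 to 3.38, and 1.97 with the trend removed). Other high folds at 24 h were those of Atp5d, with 94.3 RPKM in shSmyd5 and 29.1 RPKM in shLuc, and Uqcr11, a small subunit of complex III, with 150 RPKM in shSmyd5 and 52.3 RPKM in shLuc. Both are rich in GC, and their log2 folds of 1.69 and 1.52 were 0.68 and 0.58 with the trend removed. The 1 member lower at 24 h was Cox7b2, a low-level isoform known from testis, with 3.12 RPKM in shSmyd5 against 7.0 RPKM in shLuc (log2 -1.14, interval -1.66 to -0.67). Among members that reached 10 RPKM in one of the libraries, none of the lowest folds was past 1.5-fold. Atp5c1, the gamma subunit that turns inside the ATP synthase, had 69.2 RPKM in shSmyd5 and 99.3 RPKM in shLuc. Ndufb6, an accessory subunit, had 159 RPKM in shSmyd5 and 220 RPKM in shLuc, and Cox6b1, which faces the intermembrane space in complex IV, had 189 RPKM in shSmyd5 and 246 RPKM in shLuc.

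**Figure D2:**
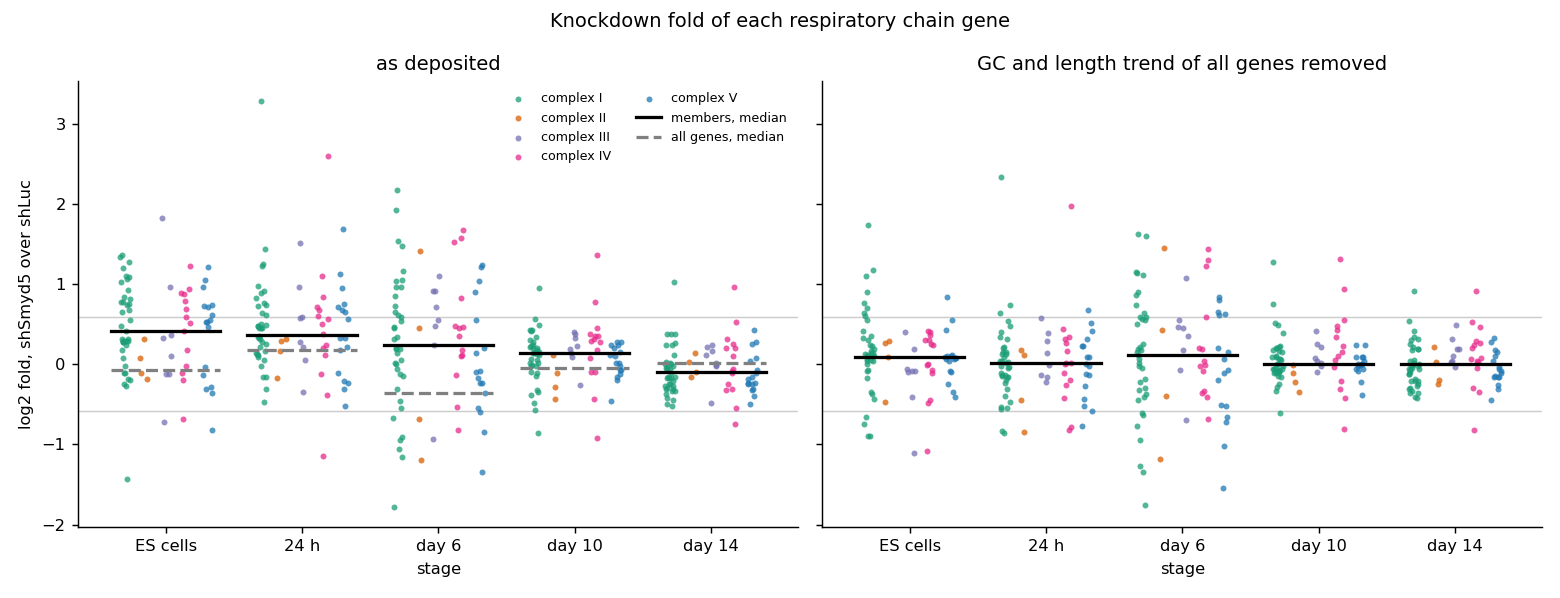
Log2 fold of shSmyd5 over shLuc for each member at each stage, coloured by complex, as deposited (left) and with the GC and length trend of all genes removed (right); the solid bar is the median of the members, the dashed bar that of all genes and the thin lines mark 1.5-fold. On the left the medians of the members were 0.42, 0.36 and 0.25 in ES cells, 24 h and day 6 EBs, and on the right 0.09, 0.01 and 0.12.

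**Figure D3:**
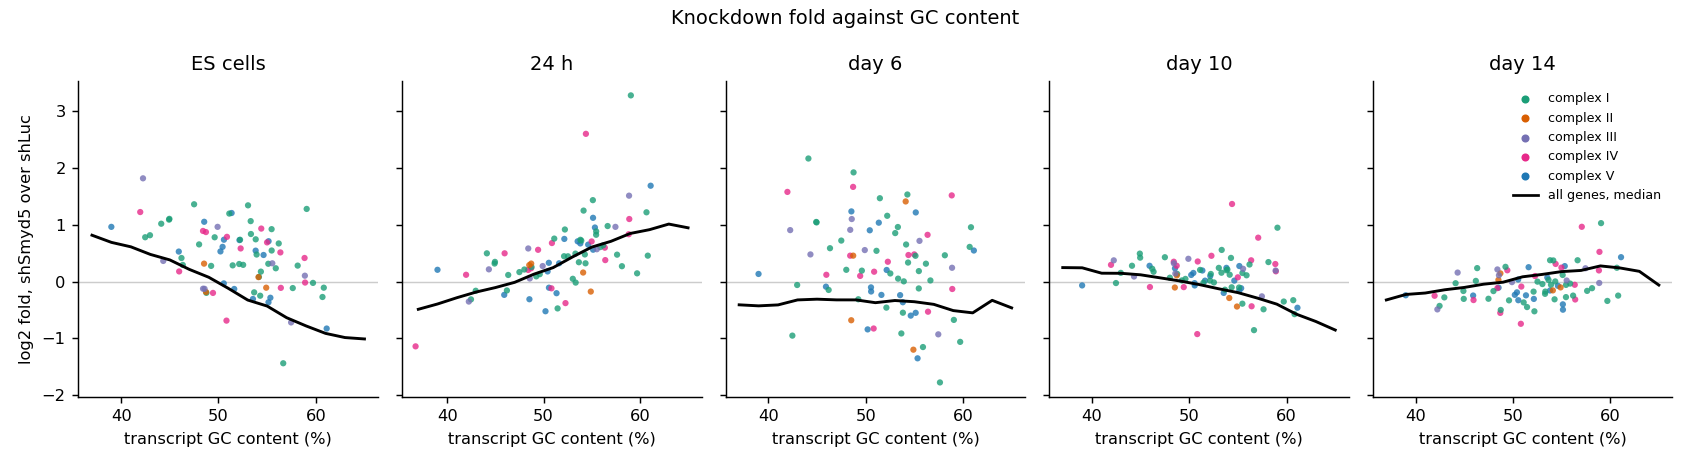
Log2 fold of shSmyd5 over shLuc of each member against the GC content of its transcript, coloured by complex, with the median of all genes in bins of GC content as a black line. The line falls with GC content in ES cells and climbs at 24 h, where the rank correlations over all genes were -0.68 and 0.58, and it is nearly flat at day 6, where it was -0.02.

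At day 6 the folds of members were more spread than at the other stages, as were those of all genes. In shSmyd5, 27 of 81 were at least 1.5-fold higher and 13 lower, where 15.2% of all genes were higher and 38.1% lower, and the medians were 0.25 for members and -0.35 for all genes. This stage had little trend on GC content, and correction for GC content and length left 22 members higher and 14 lower, where 21.3% of all genes were higher and 23.1% lower. The standard deviation of the log2 fold was 0.81 over members and 0.93 over all genes, and with the trend removed it was 0.73 over members. Over members the rank correlation of the day 6 fold with transcript length was -0.44, so that shorter transcripts tended to be higher in shSmyd5.

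The highest folds at day 6 were in complexes I and IV. Ndufc1, an accessory subunit of the membrane arm (chr3:51208599-51212910, minus strand, mm9), had 296 RPKM in shSmyd5 and 65.8 RPKM in shLuc (log2 2.17, interval 2.10 to 2.25, and 1.61 with the trend removed). Its neighbour in the complex, Ndufc2, had 268 RPKM in shSmyd5 and 70.4 RPKM in shLuc. Cox6c, an accessory subunit of complex IV, had 358 RPKM in shSmyd5 and 112 RPKM in shLuc. Cox6a1 (chr5:115795651-115798990, minus strand, mm9) had 427 RPKM in shSmyd5 and 149 RPKM in shLuc (log2 1.52, interval 1.48 to 1.57, and 1.30 with the trend removed). At the other end, Atp5g2, which encodes the same c-ring protein as Atp5g1 and Atp5g3, had 20.1 RPKM in shSmyd5 and 51.5 RPKM in shLuc. Ndufb8, an accessory subunit, had 21.5 RPKM in shSmyd5 and 47.9 RPKM in shLuc. Ndufs8, which holds iron-sulfur clusters on the path to ubiquinone, was below 10 RPKM in both libraries and was singled out after its values were seen. It had 2.84 RPKM in shSmyd5 and 9.95 RPKM in shLuc (log2 -1.77, interval -2.06 to -1.57).

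Complex II showed both directions at day 6. Sdhc, a membrane anchor of succinate dehydrogenase, had 133 RPKM in shSmyd5 and 50.03 RPKM in shLuc (log2 1.41, interval 1.36 to 1.47). Sdhb, the iron-sulfur subunit, had 13.4 RPKM in shSmyd5 and 31.0 RPKM in shLuc (log2 -1.20, interval -1.32 to -1.09), and was lower in shSmyd5 at all 5 stages, though its ES cell log2 fold of -0.11 became 0.09 with the trend removed. The day 6 folds were 1.45 for Sdhc and -1.19 for Sdhb with the trend removed. Sdha, the flavoprotein that oxidizes succinate, had 37.6 RPKM in shSmyd5 and 60.2 RPKM in shLuc, and Sdhd had 92.8 RPKM in shSmyd5 and 67.5 RPKM in shLuc. At the other stages no complex II gene was past 1.5-fold in either direction. Endoderm markers were higher in shSmyd5 at day 6, as given above, with 7 of 7 at an RPKM of 3 or more in shSmyd5 and 6 of 7 in shLuc, while the ES cell markers summed to 557 RPKM in shSmyd5 and 965 RPKM in shLuc; their part in the day 6 folds was not tested.

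By day 10 and day 14 few members differed between constructs. At day 10, 3 of 82 members were at least 1.5-fold higher in shSmyd5 and 2 lower, where 10% of all genes were higher and 16.5% lower, and at day 14 there were 2 higher and 1 lower of 82, where 11.1% of all genes were higher and 11.1% lower. Removing the GC and length trend left 4 higher and 2 lower at day 10 (11% and 10.3% of all genes) and 2 higher and 1 lower at day 14 (8.72% and 10% of all genes). The standard deviation of the log2 fold was 0.35 over members and 0.67 over all genes at day 10, and 0.31 over members and 0.59 over all genes at day 14. The genes that did differ were mostly isoforms of low level or genes that are not subunits. Cox7a1 had 6.64 RPKM in shSmyd5 and 2.51 RPKM in shLuc at day 10, and Cox4i2, Ndufa4l2 and Cox4nb are described further on. Ndufv1 had 18.8 RPKM in shSmyd5 and 34.0 RPKM in shLuc at day 10, a log2 fold of -0.85. The other genes at the ends of the range at day 10 were Ndufa13 (log2 -0.57), also known as Grim19, and Ndufs5 (0.56), both accessory subunits. At day 14 they were Cox6c (-0.55), Ndufb4 (-0.52) and Ndufc2 (-0.50) below, and Cox8a (0.53), a small subunit of complex IV, and Atp5d (0.43) above. Ndufc2 and Cox6c, among the highest folds at day 6, were thus among the lowest at day 14, at 46.5 RPKM in shSmyd5 and 65.7 RPKM in shLuc for Ndufc2 and 65.9 RPKM in shSmyd5 and 96.6 RPKM in shLuc for Cox6c. Neither day 14 fold was past 1.5-fold, and with the GC and length trend removed that of Cox6c was -0.29.

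To ask whether any member moved with the knockdown across differentiation as a whole, an edgeR quasi-likelihood fit had the stage as a block. The 5 stages stood in for replicates, which they are not. Of 83 members tested 0 passed an adjusted p of 0.05 (Benjamini-Hochberg over 12277 genes, of which 0% passed in either direction). At an unadjusted p under 0.05, 10 members were higher in shSmyd5 and 1 was lower with edgeR, and DESeq2 and limma also called 0 members. The median log2 fold was 0.31 for members and -0.01 for all genes, and 71 of 83 members were above 0, where 6016 of 12277 genes were. With a GC and length offset the median was 0.13, against -0.02 for all genes, and 2 members were higher and 3 lower at an unadjusted p under 0.05. Counts at an unadjusted p were made for members only, so no share over all genes stands beside them. Smyd5 itself had a log2 fold of -2.63 and an adjusted p of 0.107 with edgeR, so the test at this size did not pass the targeted gene. The smallest p-values of higher members were those of Cox6a1 (log2 0.71, edgeR adjusted p = 0.315), Ndufa4l2 (1.18, adjusted p = 0.329) and Cox7a1 (1.20, adjusted p = 0.352). Cox6a1 was higher in shSmyd5 at each stage, with 391, 614, 427, 143 and 185 RPKM in shSmyd5 in order of stage, against 293, 344, 149, 115 and 161 RPKM in shLuc, but with the GC and length trend removed its 24 h log2 fold of 0.84 became -0.10. In all, 7 of 83 members were higher in shSmyd5 at all 5 stages, where 4.8% of all genes were, and 2 members, Sdhb and Cox4nb, were lower at all 5, where 6.19% of all genes were.

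Many respiratory chain genes were lower at the late stages, before a correction for GC content and length. EBs of day 6, 10 and 14 (6 libraries, late) were compared with ES cells and EBs of 24 h (4 libraries, early) with the construct as a term. The fit had no stage term, so the shSmyd5 and shLuc libraries of a stage counted as separate repeats though they share a time point. Its p-values therefore rest on more repeats than there were stages. Of 83 members 26 were lower in late libraries and 0 were higher (edgeR quasi-likelihood test, adjusted p under 0.05), where 13.5% of all genes were lower and 17.6% higher. At an unadjusted p under 0.05, 39 members were lower and 1 higher, a count not made over all genes. With limma and DESeq2 1 member each was higher, where 2635 and 2673 of 12277 genes were. The median log2 fold was -0.83 for members and -0.01 for all genes. By complex, 8 of 38 fell in complex I, none of 4 in complex II, 4 of 8 in complex III, 6 of 16 in complex IV and 8 of 17 in complex V. With a GC and length offset 18 of 83 members were lower and 2 higher, where 19.9% of all genes were lower and 21.3% higher. The share of members lower was then near that of all genes. The median was -0.23 for members and -0.01 for all genes, and 15 of the 26 still passed. The count of lower members was 10 of 83 without the day 10 libraries, where 776 of 12122 genes were lower. It was 9 of 83 without those of day 14, where 576 of 11984 genes were lower. Without those of day 6 it was 44 of 83, where 2264 of 12384 genes were lower. A comparison of all EBs with ES cells called 1 of 83 members lower, where 125 of 12277 genes were lower, a similar share.

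The largest falls that passed were in complexes III and V. Atp5l, the g subunit of the ATP synthase membrane part, fell most (log2 -2.18, edgeR adjusted p = 0.0263). It had 86.2, 20.6 and 30.4 RPKM in shSmyd5 late EBs and 36.5, 17.5 and 32.7 RPKM in shLuc late EBs, against 98.1 and 178 RPKM in shSmyd5 and 47.1 and 220 RPKM in shLuc early libraries. Its groups overlapped, through the shSmyd5 library of day 6. Atp5g1, a gene for the c-ring protein (chr11:95930166-95936984, minus strand, mm9), fell by 1.95 on the log2 scale (edgeR adjusted p = 0.00152). It had 10.4, 16.6 and 12.98 RPKM in shSmyd5 late EBs and 15.3, 18.6 and 17.2 RPKM in shLuc late EBs, against 62.1 and 44.0 RPKM in shSmyd5 and 79.9 and 20.1 RPKM in shLuc early libraries. All its late libraries lay below all its early ones, by little in the case of shLuc EBs of 24 h. Uqcrq, a small subunit of complex III (log2 -1.72, edgeR adjusted p = 0.00185), had 104, 73.7 and 70.2 RPKM in shSmyd5 late EBs and 55.4, 58.9 and 60.4 RPKM in shLuc late EBs, against 239 and 188 RPKM in shSmyd5 and 260 and 126 RPKM in shLuc early libraries. This gene too was lower in each late library than in any early one. Uqcr11 (log2 -1.57, edgeR adjusted p = 0.00187) had 35.2 to 46.6 RPKM in late EBs, against 52.3 to 150 RPKM in early libraries, and Uqcrc1 (log2 -1.57, adjusted p = 0.0346) had 14.5 to 68.5 RPKM late, against 23.1 to 221 RPKM early. Of the genes with the highest mean level, Atp5b (log2 -1.06, edgeR adjusted p = 0.0131) and Cox6a1 (log2 -1.29, adjusted p = 0.0419) passed, and Ndufa4 (-1.37), Uqcrh (-0.62) and Sdhd (-0.28) did not. With the GC and length offset Cox6a1 no longer passed (log2 -0.58, edgeR adjusted p = 0.317). Atp5b still did (-0.97, adjusted p = 0.0044), and Ndufa4 then passed by little (-0.66, adjusted p = 0.049).

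In all, 10 of 83 members had every late library below every early library, where 5.36% of all genes did, and 0 had every late library above, where 16% of all genes did. Stages were also sets of cells of different make-up. Late EBs held endoderm markers at a sum of 148 to 4106 RPKM, against 1.79 to 21.1 RPKM in early libraries, and ES cell markers at 57.7 to 965 RPKM, against 2092 to 3390 RPKM; their part in the falls was not tested. Preparation and stage cannot be told apart, since each stage was its own library pair.

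**Figure D4:**
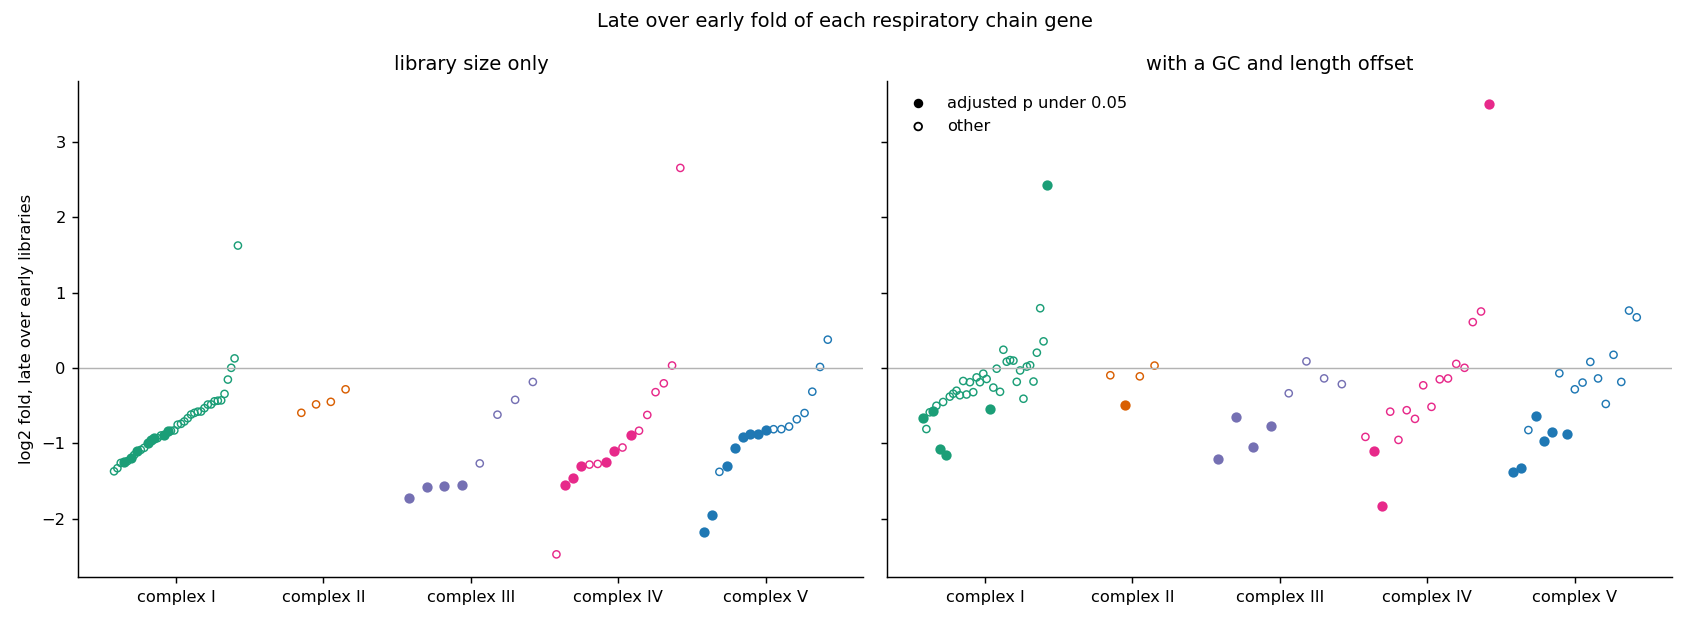
Log2 fold of late over early libraries for each tested member by complex. The edgeR fit used library sizes scaled by TMM (left, titled library size only) and a GC and length offset as well (right). Genes stand in the order of the left panel, and filled points passed an adjusted p of 0.05. On the left 26 members passed, all of them lower, and on the right 18 passed lower and 2, Ndufa4l2 and Cox4i2, passed higher.

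Many promoters of respiratory chain genes are known to hold sites for nuclear respiratory factor 1 (NRF1), for ETS-family factors such as GABPA (NRF2) and for YY1. RefSeq windows on GRCm38.p6, from 250 bases before to 50 after the start, were matched for 70 of 86 members and searched on both strands, and matches of the 3 motifs were allowed to overlap. GCGCANGCG (NRF1) was found in 19 windows of members (27.1%, against 6.47% of 27025 windows of all genes), CCGGAAG (ETS) in 15 (21.4%, against 9.12%) and AAGATGGCG (YY1) in 7 (10.0%, against 1.49%). Windows of members were also richer in GC, with a median of 57.3% against 52.7%. Of the 20 members with a window that were lower in late libraries, 14 held 1 or more of the 3 motifs, and of the 49 other tested members 20 did, a count made after the calls were known. Over all windows 15.3% held 1 or more. These calls were made without the GC and length offset, and the GC content of the windows was not compared between called and other members. A link of motifs to the late falls was not tested. A match is a description of letters and says nothing of binding. The 120 bases before the start are shown for 4 genes that the results above turn on, with matches in capitals: Cox6a1 (chr5:115348959-115349078, minus strand), which holds an NRF1 and an ETS match, Uqcr11 (chr10:80406822-80406941, minus strand), which holds an ETS match, and Atp5g1 (chr11:96075632-96075751, minus strand) and Ndufc1 (chr3:51408956-51409075, minus strand), which hold none of these letters in this stretch. The searched window holds further matches that lie outside the stretch or run past its end. These are of NRF1 in Cox6a1 and Uqcr11 and of YY1 in Ndufc1, while Atp5g1 has none.
Cox6a1: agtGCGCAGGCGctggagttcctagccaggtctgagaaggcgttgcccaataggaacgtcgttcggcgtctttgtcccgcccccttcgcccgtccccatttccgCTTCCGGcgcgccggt
Uqcr11: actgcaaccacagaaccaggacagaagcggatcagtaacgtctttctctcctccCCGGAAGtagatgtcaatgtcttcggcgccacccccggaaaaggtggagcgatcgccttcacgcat
Atp5g1: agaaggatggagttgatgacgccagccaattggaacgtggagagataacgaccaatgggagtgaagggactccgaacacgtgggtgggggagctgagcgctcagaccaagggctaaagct
Ndufc1: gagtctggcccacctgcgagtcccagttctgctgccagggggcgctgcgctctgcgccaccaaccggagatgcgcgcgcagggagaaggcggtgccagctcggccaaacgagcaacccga

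Other mitochondrial lists were set beside the subunits in the late over early test. The mitochondrial ribosomal proteins, which make the subunits encoded in mitochondrial DNA, had 42 of 76 lower and 0 higher, with a median log2 fold of -1.04, and 36 lower with the GC and length offset, against 19.9% of all genes. Mrps18b had 9.02, 18.5 and 18.1 RPKM in shSmyd5 late EBs and 17.1, 16.1 and 13.5 RPKM in shLuc late EBs, against 62.0 and 43.8 RPKM in shSmyd5 and 50.9 and 21.9 RPKM in shLuc early libraries (edgeR adjusted p = 0.0014). Mrps24 (log2 -1.80) and Mrps16 (-1.46) also fell. The other lists had fewer members past the test, and their counts stand against 13.5% of all genes lower, or 19.9% with the offset. Among 26 assembly factors tested 6 fell and 0 rose (8 fell with the offset), with Ecsit (log2 -2.22), which helps build complex I, Ndufaf2 (-1.47) and Cox10 (-1.19), which takes part in the synthesis of heme A for complex IV. Of 14 genes for electron carriers and ubiquinone 3 fell (4 with the offset), namely Cyc1 (-1.52), the cytochrome c1 of complex III that the name pattern leaves out, Pdss1 (-2.12), which makes the ubiquinone tail, and Etfb (-0.87). Of 13 genes of the tricarboxylic acid cycle 4 fell (5 with the offset), with Mdh2 at 79.8 to 98.9 RPKM in late EBs, against 138 to 221 RPKM in early libraries, and Idh3g (-1.08) and Ogdh (-0.90) beside it. Of 15 regulators of mitochondrial biogenesis 2 fell, a share near that of all genes, and 8 with the offset; the 2 were Pprc1 (-1.54), a coactivator related to Ppargc1a, and Polrmt (-1.73), the mitochondrial RNA polymerase. In the shared knockdown test edgeR passed 0 genes of these lists and 0 of all genes, while DESeq2 passed 176 of all genes higher and 157 lower.

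Day 14 EBs were also set against ES cells within each construct, contrasts that share their libraries with the knockdown folds. In shSmyd5, 52 of 82 members were past 1.5-fold below their ES cell level and 2 past it above, where 29.4% of all genes were lower and 39.5% higher. The median log2 fold was -0.84 for members and 0.16 for all genes. In shLuc, 31 of 82 were lower and 11 higher, where 34.4% of all genes were lower and 41.1% higher. The median there was -0.26 for members and 0.15 for all genes. With the GC and length trend removed the counts were 48 lower and 1 higher in shSmyd5 (41.9% and 27.7% of all genes). They were 44 lower and 6 higher in shLuc (43.2% and 27.6%). The medians of the members were then -0.70 in shSmyd5 and -0.65 in shLuc, against -0.31 and -0.36 for all genes.

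Several subunits have alternative isoforms from separate genes, and the shares of these changed with stage. Cox4i2, the isoform of the regulatory subunit IV known from lung and from hypoxia, was low early, with 34 reads in shSmyd5 and 9 reads in shLuc ES cells, and with 1 read in shSmyd5 and 2 reads in shLuc EBs of 24 h. At day 10 it had 11.4 RPKM in shSmyd5 and 6.59 RPKM in shLuc (log2 0.78, interval 0.43 to 1.14), and at day 14 it had 8.89 RPKM in shSmyd5 and 4.50 RPKM in shLuc (log2 0.97, interval 0.67 to 1.30). It then made up 5.24% of Cox4 RPKM in shSmyd5 and 2.32% in shLuc at day 10, and 4.29% in shSmyd5 and 1.79% in shLuc at day 14. Cox4i1, the common isoform, had 205 RPKM in shSmyd5 and 277 RPKM in shLuc at day 10 and 198 RPKM in shSmyd5 and 246 RPKM in shLuc at day 14. The late over early log2 fold of Cox4i2 was 2.66 (edgeR adjusted p = 0.0653), and 3.51 with the GC and length offset (adjusted p = 0.0159).

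Ndufa4l2 changed its place between the constructs with stage. It had 11.01, 5.61, 20.6, 11.3 and 12.8 RPKM in shSmyd5 in order of stage, against 4.47, 0.487, 32.9, 5.80 and 6.19 RPKM in shLuc. It was higher in shSmyd5 at every stage but day 6. At day 6 it made up 4.45% of the summed Ndufa4 and Ndufa4l2 RPKM in shSmyd5 and 13.4% in shLuc. Late over early, its log2 fold was 1.63 (edgeR adjusted p = 0.133), and 2.44 with the offset (adjusted p = 0.0307).

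The 3 genes for the c-ring protein of ATP synthase code for the same mature protein and differ in their import sequences. Atp5g3 was the main source in all libraries, with 76.4, 88.5, 93.9, 74.3 and 78.6% of their summed RPKM in shSmyd5 in order of stage and 62.8, 93.4, 78.9, 70.5 and 82.1% in shLuc. Atp5g1 held 3.61% in shSmyd5 and 4.38% in shLuc EBs of day 14, against 11.2% in shSmyd5 and 18.2% in shLuc ES cells. At 24 h it already stood at 6.82% in shSmyd5 and 3.73% in shLuc. The GC content was 55.1% for Atp5g1, 55.3% for Atp5g2 and 50.4% for Atp5g3, and the shares were not corrected for it. Atp5g2 held 4.05% in shSmyd5 and 16.3% in shLuc at day 6. Its level of 20.1 RPKM in shSmyd5 at day 6 lay between 15.6 RPKM (shLuc, 24 h) and the 8 other libraries, at 30.4 to 83.3 RPKM.

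Of the other isoform pairs, the common genes dominated. Cox6a1 made up at least 99.0% of Cox6a RPKM in every library, and Cox6a2, the heart and muscle isoform, was read only at day 10 and day 14, with 47 reads in shSmyd5 and 36 reads in shLuc at day 14. Cardiac markers summed to 67.1 RPKM in shSmyd5 and 94.8 RPKM in shLuc at day 14, against at most 5.54 RPKM up to day 6. At day 10 they summed to 46.3 RPKM in shSmyd5 and 19.1 RPKM in shLuc, where Cox6a2 had 2 reads in each library. Cox8b, also a muscle isoform, had 1 read in all 10 libraries, and Cox8c, a testis isoform, at most 19 reads. Cox7b2 was highest at 24 h, with 71 reads in shSmyd5 and 73 reads in shLuc, or 0.72% of Cox7b RPKM in shSmyd5 and 1.75% in shLuc. Cox6b2, known from testis, was well expressed, at 11.2 to 40.5 RPKM in shSmyd5 and 6.80 to 25.03 RPKM in shLuc, and made up 13.8% of Cox6b RPKM in shSmyd5 and 12.96% in shLuc ES cells. Of the Cox7a genes, Cox7a2 held 47.1% in shSmyd5 and 40.8% in shLuc at day 10, against 79.9% in shSmyd5 and 86.7% in shLuc at 24 h. Its share did not move in a single direction with stage. It was 69.1% in shSmyd5 and 52.1% in shLuc ES cells, and 59.2% in shSmyd5 and 64.5% in shLuc at day 14. Cox7a2l, a factor in joining complexes III and IV, held 48.6% in shSmyd5 and 57.4% in shLuc at day 10.

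**Figure D5:**
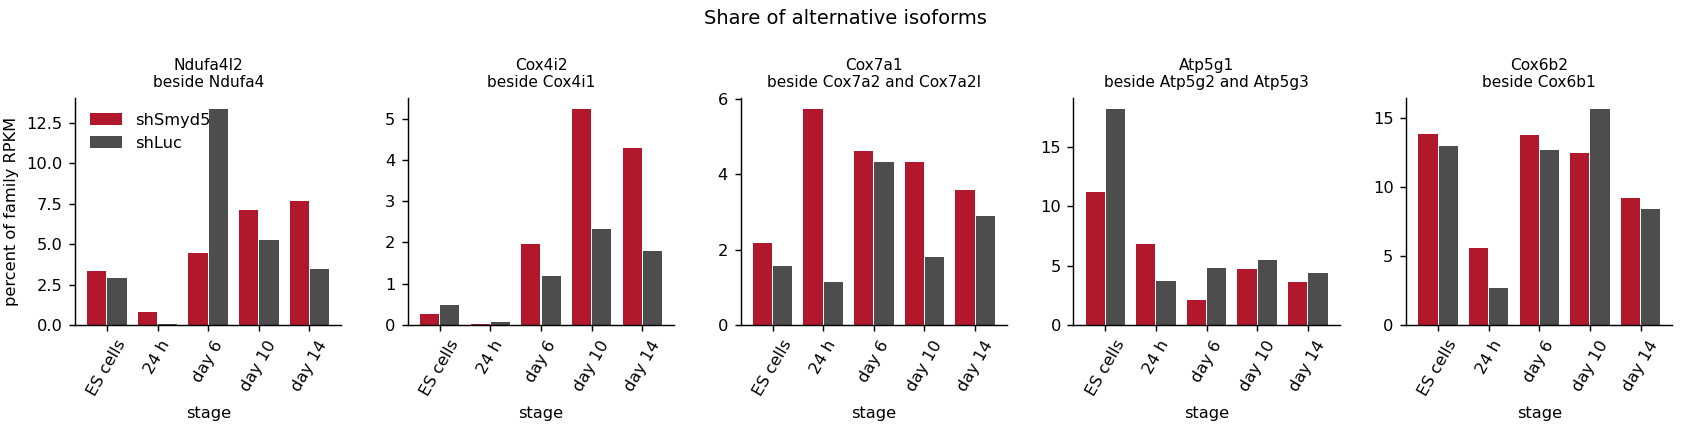
Share of the less common isoform in the summed RPKM of its family, in percent, by stage, shSmyd5 in red and shLuc in grey, 1 library per bar. Cox4i2 reached 5.24% in shSmyd5 and 2.32% in shLuc at day 10, and Ndufa4l2 was at 4.45% in shSmyd5 and 13.4% in shLuc at day 6.

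Symbols taken in by the pattern that are not subunits followed courses of their own. Cox4nb, which lies head to head with Cox4i1 and encodes a part of an endoplasmic reticulum membrane complex, had 15.7, 12.1, 5.10, 6.21 and 4.05 RPKM in shSmyd5 in order of stage, against 25.4, 13.1, 9.10, 11.9 and 6.84 RPKM in shLuc. It was lower in the knockdown throughout, and of the members it had the smallest p-value in the shared test (log2 -0.60, unadjusted p = 0.00698, edgeR adjusted p = 0.253). Late over early it fell by 1.45 on the log2 scale (edgeR adjusted p = 0.0022). Atp5sl, linked to the assembly of complex I, had 6.46 to 15.3 RPKM in shSmyd5 and 6.43 to 18.9 RPKM in shLuc and also fell late over early (log2 -0.91, edgeR adjusted p = 0.0351). Atp5s, a coupling factor homologue, had 4.57 to 11.7 RPKM in shSmyd5 and 2.29 to 10.6 RPKM in shLuc and did not pass. Without these 4 symbols the late over early count was 24 lower and 0 higher.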

How the data were processed

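RNA-Seq data from 10 libraries (2 constructs, 5 stages, 1 library each) were used. Per the labels and the study's methods, double-stranded cDNA was made from polyA RNA without strand marking, and the submitters' processing notes name CASAVA, Bowtie2 and mm9, with no versions. The deposited files list, for each of 29257 RefSeq transcripts, a whole read count, the length and an RPKM value, the reads scaled by the authors to kilobases and library size; recomputed RPKM lay within 1% in 100% of the values checked. The files of the late shLuc libraries carry another processing suffix than the rest, and its effect was not tested.

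For each symbol the transcript with the highest mean reads was kept. Members and lists were chosen with earlier results of these data known. Folds were log2 of RPKM plus 0.1, with exact binomial (Clopper-Pearson) 95% intervals from the read counts, which cover counting error only; counts at 1.5-fold left out genes under an RPKM of 3 in each of the libraries compared. A natural spline (5 degrees of freedom) on GC content and log length, fitted over all genes, gave the corrected folds. GC content came from GENCODE M1 transcripts on NCBIM37, which hold 85 of the 86 members as 1 gene. Tests used edgeR 4.0.16 (quasi-likelihood, TMM, Benjamini-Hochberg, threshold 0.05, mean RPKM of at least 1) on the deposited read counts, with limma 3.58.1 and DESeq2 1.42.0 as alternatives (R 4.3.3). Stages are not replicates of a condition. In the shared test the p-values measure how the construct difference varied from stage to stage. In the late over early test they measure spread between libraries within the early and the late period. The edgeR and interval steps were tested on simulated data. Named were the member with the highest mean RPKM in each complex, the 3 highest and 3 lowest folds at each stage with an RPKM of at least 10, the 5 largest falls past the late over early test, isoform families, complex II, the symbols that are not subunits, and up to 3 genes per list past a test. Python 3.11.15, numpy 2.4.6, pandas 2.3.3 and matplotlib 3.10.9 were used.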

Additional observations from a re-analysis of the deposited data

Results flagged for a closer look

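Members whose fold of shSmyd5 over shLuc was at least 1.5-fold higher at one stage and at least 1.5-fold lower at another, at an RPKM of 3 or more, were picked out; the difference between stages was not tested, since each group had 1 library. There were 8 such members. The log2 fold of Ndufv1 was -1.44 in ES cells and 0.98 at 24 h, and that of Atp5d was -0.83 in ES cells and 1.69 at 24 h. Ndufv2 stood at 0.78 in ES cells and -0.95 at day 6. The other 5 were higher at 24 h and lower at day 6, with log2 folds of 0.95 and -1.35 for Atp5g2, 0.61 and -1.15 for Ndufb8, 0.97 and -0.93 for Uqcrc1, 3.28 and -0.67 for Ndufa4l2, and 0.65 and -0.60 for Atp5e. Of the 8, 7 have a GC content over 54% and Ndufv2 has 42.5%. With the GC and length trend of all genes removed, 1 of the 8, Ndufa4l2, was still past 1.5-fold in both directions (2.34 at 24 h and -0.63 at day 6).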

How the results depend on the processing

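The correction for GC content and length changed the knockdown results most. It left 9 members at least 1.5-fold higher in ES cells (median log2 fold 0.091) and 5 higher and 6 lower at 24 h (median 0.011), and a median of 0.12 at day 6. For day 14 over ES cells it gave 1 higher and a median of -0.70 in shSmyd5, and 6 higher and a median of -0.65 in shLuc. The medians of all genes were then -0.31 in shSmyd5 and -0.36 in shLuc. Taken relative to the median of all genes, 3 members were lower at 24 h (median 0.23) and 8 lower at day 6 (median 0.51). An RPKM minimum of 1 gave 2 lower at 24 h; a minimum of 10 gave 0 lower at 24 h, a median of 0.34 at day 6, 1 higher and 0 lower at day 14, and 0 higher for day 14 over ES cells in shSmyd5, where a pseudocount of 1 gave 1. Without symbols that are not subunits the day 6 median was 0.34, 1 member was lower at day 10, 1 higher and 0 lower at day 14, and 1 higher for day 14 over ES cells in shSmyd5. In the late over early test, members higher numbered 1 with limma, DESeq2 and no construct term and 2 with the GC and length offset, and members lower 15 with limma and 1 for all EBs over ES cells, where Atp5l had a log2 fold of 0.44. With each stage left out, 9 to 44 members were lower and 0 to 1 higher, where 576 to 2264 of all genes were lower and 1046 to 2596 higher. Over all 12277 genes, 980 were lower with limma and 125 for all EBs over ES cells. The other 189 counts and medians stayed within 1.5 times or within their spread. The tests without the 4 symbols were added after the data were seen. The shared test paired the constructs within each stage by its stage block, and without that block it also called 0 members; the labels give no replicate numbers to pair by.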
